A study of Mus musculus with 6 samples.

Results

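Transcripts of 10 genes that are used as markers of resident and activated fibroblasts were examined in cardiac fibroblasts of the mouse, namely *Pi16*, *Dpp4*, *Ly6a*, *Cd34*, *Thy1*, *Fap*, *Gsn*, *Dpep1*, *Cd248* and *S100a4*. The genes were chosen by name, with earlier results of these data known. Each was found once among the 22063 genes of the deposited table, and 9 of the 10 had enough reads to be tested. The primary fibroblasts came from *Tet3* f/f mice on a C57BL/6J background and were transduced with 1 of 2 adenoviruses, both with a CMV promoter. Ad-GFP, the control, codes for EGFP (the GFP group), and Ad-Cre codes for Cre recombinase with EGFP (the CRE group, labelled as *Tet3* knockout). All cells in both groups received TGF-β, a cytokine that drives fibroblasts towards contractile, matrix-producing myofibroblasts, so untreated cells are outside this comparison. RNA was sequenced in 3 libraries per group, and the comparison asks how each marker transcript differed between CRE and GFP under TGF-β. The groups differ in Cre as well as in *Tet3*, and no cells with Cre but without floxed *Tet3* were included. An effect of Cre or its virus therefore cannot be told apart from one of *Tet3* loss. Neither the sex and age of the mice nor any pooling of animals is given in the sources used here. The study calls its replicates biological, without saying whether the libraries of a group came from separate mice or from separate cultures, so the p-values measure only the spread between these libraries.

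Fibroblasts of the heart are identified by combinations of markers, since no single surface protein is restricted to them. *Pi16*, *Dpp4*, *Ly6a* (Sca-1) and *Cd34* are associated with resident, progenitor-like fibroblasts of the adventitia, *Thy1* (CD90) and *Cd248* (endosialin) with stromal cells at large, and *Fap* with fibroblasts activated by injury. *Gsn* and *S100a4* (FSP1) are listed with them as fibroblast markers although they code for an actin-severing protein and a calcium-binding protein that are not anchored in the membrane. TET3 oxidises 5-methylcytosine, which in mammalian DNA lies mostly in CG pairs, as a step towards demethylation. Protein at the cell surface and DNA methylation were not measured here.

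Total counts were between 17002126 and 20343590 per library, so a count of 0 would allow up to between 0.156 and 0.187 CPM (counts scaled to the TMM-adjusted library size), counting error only. *Tet3* itself fell from 57.1 ± 6.88 to 34.7 ± 1.17 CPM (SD, n = 3), which is -0.72 ± 0.08 (SE) as a log2 fold change, so that 60.8% of the level remained in the group labelled as knockout, counted over the whole gene and not over the deleted part alone. Across genes, log2 CPM correlated at r from 0.989 to 0.993 within a group and from 0.963 to 0.970 between groups. No pair of libraries of 1 group agreed within sampling noise (lowest chi-square over its degrees of freedom, 4.09). In edgeR's quasi-likelihood test 51.2% of the 12862 tested genes passed an adjusted p of 0.05, 25.5% higher and 25.7% lower in CRE, and these shares are the background for the counts below. With libraries scaled by library size alone, 43% of the same genes were higher and 16.2% lower, and counts given for that scaling are to be read against these.

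Of the 9 markers tested, 5 were lower in CRE (*Cd34*, *Fap*, *Pi16*, *Dpep1* and *Gsn*), 1 was higher (*Ly6a*) and 3 did not pass the threshold (*Thy1*, *Cd248* and *S100a4*). The 6 called of 9 stand against the 51.2% of all tested genes. With a fold change over 1.5 asked for as well, 4 were lower and 1 was higher, against 10.2% and 7.14% of tested genes. The median log2 fold change of the 9 markers was -0.32, against 0.005 for all tested genes, and the median of the absolute values was 0.65 against 0.25. With library size alone the median was -0.16 for the markers and 0.17 for all tested genes. All CRE libraries lay on one side of all GFP libraries for 6 of the tested markers and for *Dpp4*, as they did for 59.6% of tested genes. These were bulk samples, in which fewer cells of a type and less RNA per cell cannot be told apart. With 3 libraries against 3, the exact permutation test (two-sided) cannot give a p below 0.1, and it gave 0.1 for each of the 7 markers without overlap.

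**Figure D1:**
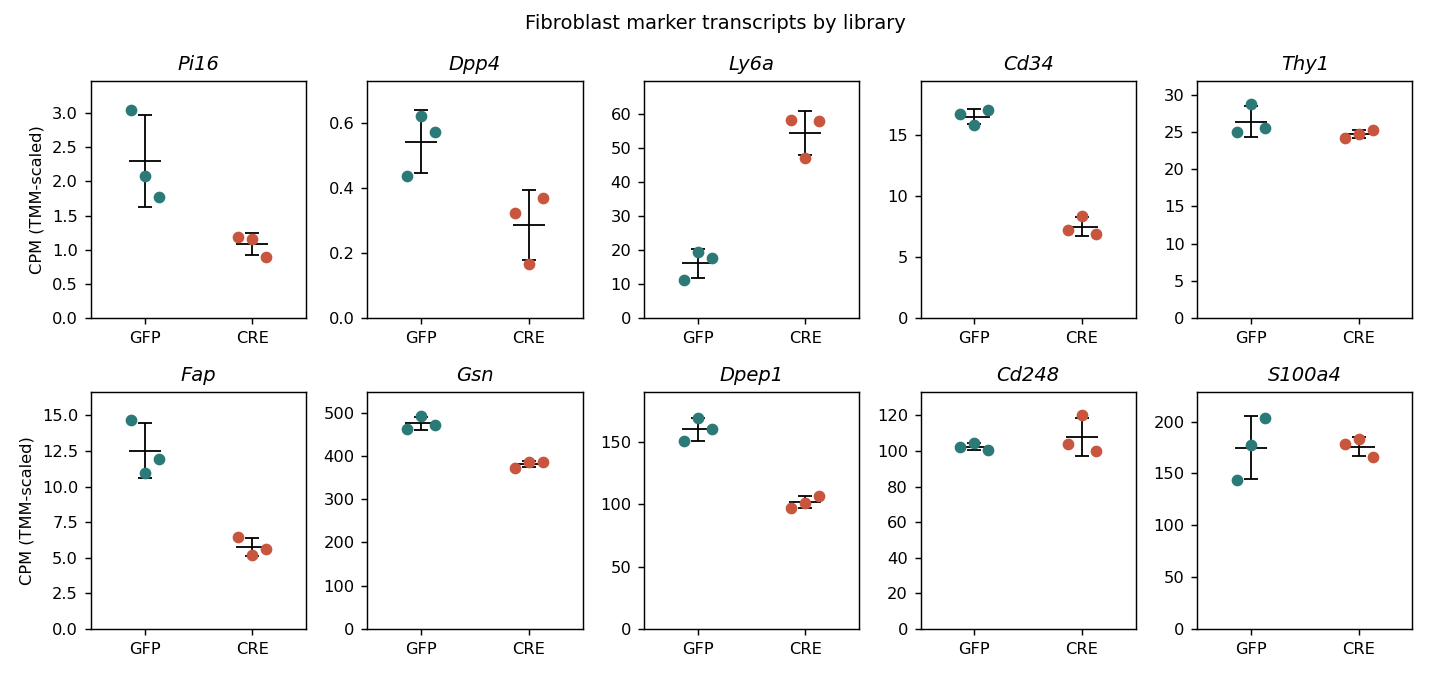
Normalized read count (CPM, TMM-scaled, axes from 0) of the 10 markers in the 3 GFP and 3 CRE libraries, 1 panel per gene, with points for libraries in the order of replicate number and bars for mean ± SD. *Ly6a* is above and *Pi16*, *Dpp4*, *Cd34*, *Fap*, *Gsn* and *Dpep1* are below the GFP libraries in all 3 CRE libraries, while the groups overlap for *Thy1*, *Cd248* and *S100a4*.

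The promoters of 3 markers are shown with every CG in capitals, because CG pairs are where TET enzymes find most of their substrate: *Cd34* and *Dpep1*, which fell, and *S100a4*, which did not pass the threshold. Each is a window of 240 bases that ends 10 bases before the RefSeq transcript start (GRCm38.p6), read 5′ to 3′ on the plus strand, the strand of all 3 genes. The windows are chr1:194938571-194938810 for *Cd34*, chr8:123185985-123186224 for *Dpep1* and chr3:90603520-90603759 for *S100a4*.
Cd34: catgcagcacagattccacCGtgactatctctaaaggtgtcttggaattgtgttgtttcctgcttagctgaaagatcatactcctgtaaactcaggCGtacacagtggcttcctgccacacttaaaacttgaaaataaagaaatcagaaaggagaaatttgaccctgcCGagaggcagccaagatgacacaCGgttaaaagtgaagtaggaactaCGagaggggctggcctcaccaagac
Dpep1: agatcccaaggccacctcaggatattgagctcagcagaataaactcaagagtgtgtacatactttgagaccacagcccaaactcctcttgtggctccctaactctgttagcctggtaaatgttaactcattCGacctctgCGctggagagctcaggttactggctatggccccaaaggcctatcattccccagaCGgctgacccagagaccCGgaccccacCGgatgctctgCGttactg
S100a4: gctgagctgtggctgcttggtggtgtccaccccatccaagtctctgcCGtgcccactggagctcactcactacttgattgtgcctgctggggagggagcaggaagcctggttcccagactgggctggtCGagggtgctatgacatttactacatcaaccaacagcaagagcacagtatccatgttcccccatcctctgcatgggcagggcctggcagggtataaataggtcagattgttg
The *Cd34* window held 5 CG pairs, that of *Dpep1* 6 and that of *S100a4* 2. Among the windows not shown, that of *Pi16*, which also fell, held 2, the 3 windows of *Gsn* held 13, 2 and 11, and that of *Dpp4* held 4. The *Pi16* window lies inside the annotated gene and overlaps an annotated exon. Over 32817 RefSeq promoter windows of the same length the median was 5, with quartiles of 2 and 15, and 91.6% held at least 1, so all 8 windows were below the upper quartile. Of the 10 markers, 6 had an entry, with 8 windows in all, and *Ly6a*, *Thy1*, *Fap* and *Cd248* had none. The AP-1 motif TGANTCA, searched on both strands, was in none of the 8 windows and in 6.59% of all promoters. The TEAD motif GGAATG, also searched on both strands, was in the windows of *Dpep1* and *Dpp4* and in 12.2% of all promoters. A match of letters is a description only, and neither motif holds a CG.

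The markers of resident fibroblasts moved in different directions. *Ly6a* (ENSMUSG00000075602, chromosome 15, positions 74994877 to 74998031 in GRCm38, minus strand) codes for Sca-1, a small GPI-anchored protein of the Ly6 family. Its counts were 180, 344 and 338 in GFP and 1083, 848 and 1097 in CRE, or 11.2, 19.4 and 17.6 CPM against 58.2, 47.0 and 57.9 CPM. Every CRE library was well above every GFP library, and GFP replicate 1 was the lowest of all. The mean rose 3.39-fold, from 16.05 ± 4.30 to 54.4 ± 6.40 CPM (SD, n = 3). As a log2 fold change this is 1.75 ± 0.16 (SE), at an adjusted p by edgeR of 1.17e-05. That is the largest change in either direction among the 9 markers tested, and 97.7% of tested genes had a smaller absolute log2 fold change. Reads that fit *Ly6a* and a close copy such as *Ly6c1* or *Ly6i* may have been divided between them or dropped, as the handling of such reads in the counting is not stated.

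*Cd34* (ENSMUSG00000016494, chromosome 1, positions 194938819 to 194961279, plus strand), a heavily glycosylated sialomucin of progenitor cells, endothelium and resident fibroblasts, went the other way. It had 269, 281 and 328 counts in GFP and 135, 151 and 131 in CRE, which is 16.7, 15.8 and 17.04 CPM against 7.25, 8.36 and 6.92 CPM. The GFP libraries lay close together and the CRE libraries were all near the 45.4% that the CRE mean makes of the GFP mean. On the log2 scale the change was -1.14 ± 0.10 (SE), at an adjusted p of 1.00e-05.

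*Pi16* (ENSMUSG00000024011, chromosome 17, positions 29317680 to 29330593, plus strand), a membrane-anchored protein with a CAP domain, was scarce, with 49, 37 and 34 counts in GFP and 22, 21 and 17 in CRE. In CPM the values were 3.05, 2.09 and 1.77 against 1.18, 1.16 and 0.898. The groups did not overlap, although GFP replicate 1 stood above the others and the GFP coefficient of variation, 29.0%, was the highest of the 10 markers in that group. *Pi16* fell to 47.0% of the GFP mean, with -1.07 ± 0.28 (SE) as its log2 fold change and an adjusted p of 0.00910. The change was -0.35 on log2(FPKM + 1), where the pseudocount lowers it, and -0.88 on log2(FPKM + 0.1).

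*Dpp4* (ENSMUSG00000035000, chromosome 2, positions 62330073 to 62412231, minus strand) codes for CD26, a membrane serine protease that clips dipeptides after proline or alanine. It had only 7, 11 and 11 counts in GFP and 6, 3 and 7 in CRE, too few to enter the test. The levels were 0.435, 0.620 and 0.572 CPM against 0.322, 0.166 and 0.370 CPM, and all 3 CRE libraries were lower. When genes with few counts were kept in the fit, its log2 fold change was -0.91 ± 0.52 (SE), at an adjusted p of 0.189. A difference of this size was thus not called on so few counts. For *Pi16*, *Dpp4* and *Cd34* the annotation has an antisense gene over part of the exons, and whether the counting used the strand is not stated.

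*Fap*, the marker of activated fibroblasts, was lower in CRE by a factor close to that of *Cd34*. *Fap* (ENSMUSG00000000392, chromosome 2, positions 62500943 to 62574075, minus strand) codes for fibroblast activation protein, a serine protease closely related to DPP4 that cleaves collagen fragments and peptides after proline. Its counts of 236, 194 and 230 in GFP and 120, 94 and 107 in CRE correspond to 14.7, 10.9 and 12.0 CPM and to 6.45, 5.21 and 5.65 CPM. The highest CRE library was well below the lowest GFP library. The mean went from 12.5 ± 1.93 to 5.77 ± 0.629 CPM (SD, n = 3), which leaves 46.1%. The log2 fold change was -1.11 ± 0.14 (SE), at an adjusted p of 9.61e-05. *Fap* and *Dpp4* are neighbours on the same strand of chromosome 2, 88.7 kb apart.

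The abundant markers *Dpep1* and *Gsn* fell less in proportion, with little spread between libraries. *Dpep1* (ENSMUSG00000019278, chromosome 8, positions 123186242 to 123201812, plus strand) codes for a GPI-anchored dipeptidase that also processes leukotrienes. It went from 151, 169 and 160 CPM to 97.2, 101 and 107 CPM, from 2425 to 3081 counts per GFP library and from 1810 to 2023 per CRE library. All CRE libraries were below all GFP libraries, at 63.6% of the GFP mean, and the log2 fold change was -0.65 ± 0.06 (SE), at an adjusted p of 8.64e-06. *Gsn* (ENSMUSG00000026879, chromosome 2, positions 35256380 to 35307892, plus strand) codes for gelsolin, which severs and caps actin filaments and is also secreted into plasma. It had 462.7, 492.5 and 471.6 CPM in GFP and 372.4, 385.4 and 385.6 CPM in CRE. The drop to 80.1% of the GFP mean was small, but it exceeded the spread, since the coefficient of variation was 3.22% in GFP and 1.99% in CRE. The log2 fold change was -0.32 ± 0.04 (SE), at an adjusted p of 0.000158, and it was -0.16 when libraries were scaled by library size alone.

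The other 3 markers did not pass the threshold with TMM scaling, and the intervals given for them hold for that scaling only. *Thy1* (ENSMUSG00000032011, chromosome 9, positions 44043384 to 44048579, plus strand), a GPI-anchored immunoglobulin-like protein of fibroblasts, neurons and T cells, had 24.9, 28.7 and 25.5 CPM in GFP and 24.1, 24.6 and 25.2 CPM in CRE. The groups overlapped, and the log2 fold change was -0.10 with a 95% interval from -0.24 to 0.04 (adjusted p of 0.281, exact permutation p of 0.2). With library size alone the log2 fold change of *Thy1* was 0.065 (adjusted p of 0.459), outside that interval. *Cd248* (ENSMUSG00000056481, chromosome 19, positions 5068078 to 5070682, plus strand), a C-type lectin-like receptor of stromal cells and pericytes, had 102.2, 104.5 and 100.8 CPM in GFP and 103.7, 120.1 and 99.7 CPM in CRE. CRE replicate 2 was the high library and the others lay between 99.7 and 104.5 CPM, giving a log2 fold change of 0.07 with an interval from -0.06 to 0.20 (adjusted p of 0.385, exact permutation p of 0.7). *Cd248* passed the threshold when libraries were scaled by library size alone (0.24, adjusted p of 0.0121) and on FPKM values (0.23, adjusted p of 0.0264), with all CRE libraries then above all GFP libraries (40.5 to 49.0 FPKM against 36.6 to 37.9 FPKM), and its sign turned without CRE replicate 2 (-0.0066).

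*S100a4* (ENSMUSG00000001020, chromosome 3, positions 90603771 to 90606045, plus strand) had nearly the same mean in both groups, 174.9 ± 29.97 CPM in GFP and 175.8 ± 9.01 CPM in CRE (SD, n = 3). The GFP libraries were far apart, at 143.6, 177.8 and 203.4 CPM, and the CRE libraries, at 178.5, 183.2 and 165.8 CPM, lay within their range. The log2 fold change was 0.006 with an interval from -0.19 to 0.21 (adjusted p of 0.967, exact permutation p of 0.9). It became -0.12 (adjusted p of 0.146) without GFP replicate 1, the library in which *S100a4* was lowest. Another annotated gene on the same strand, *Gm42674*, shares exon sequence with *S100a4* and was listed at 0 counts in every library.

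**Figure D2:**
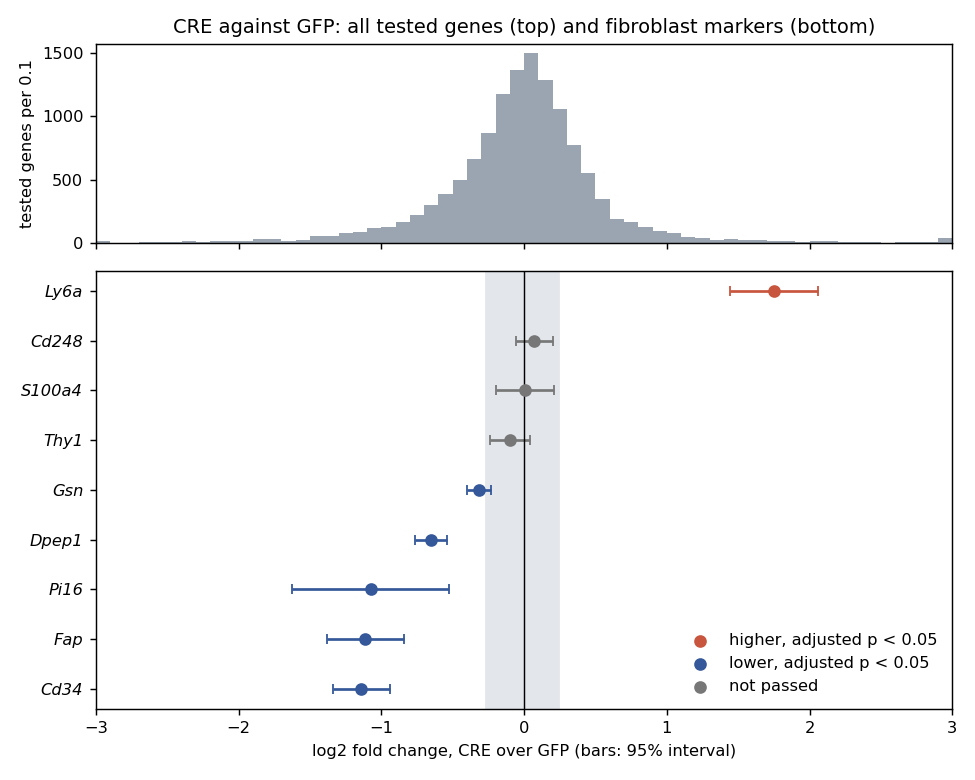
Log2 fold change of CRE over GFP. The histogram counts all 12862 tested genes in bins of 0.1, with genes beyond the axis in the end bins, and the points below are the 9 tested markers with 95% intervals, red for higher, blue for lower and grey for not passed. The shaded band holds the middle 50% of tested genes, from -0.26 to 0.25, and *Ly6a*, *Dpep1*, *Pi16*, *Fap* and *Cd34* have intervals wholly outside it.

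The levels of the markers were compared with each other per transcript length, as FPKM. In GFP the order of mean levels was *S100a4* (332.2 ± 57.4 FPKM, SD, n = 3), *Gsn* (190.9 FPKM), *Dpep1* (67.8 FPKM), *Cd248* (37.2 FPKM), *Ly6a* (16.96 FPKM), *Thy1* (14.7 FPKM), *Cd34* (6.24 FPKM), *Fap* (4.76 FPKM), *Pi16* (0.681 FPKM) and *Dpp4* (0.0973 FPKM). Only *Ly6a* and *Thy1* overlapped among neighbours in that order. In CRE *Ly6a* was the third, at 64.1 ± 7.53 FPKM, above *Dpep1* (49.3 FPKM) and *Cd248* (43.8 FPKM), which then overlapped, and the order was otherwise kept. The top marker in GFP had a mean level above that of 99.02% of the genes detected and the lowest marker above 21.03%. With the counts divided by the summed exon length of each gene instead, the order was the same in GFP, *Cd248* and *Dpep1* changed places in CRE and *Cd248* overlapped *Ly6a* there, and *Cd34* and *Fap* overlapped in both groups.

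**Figure D3:**
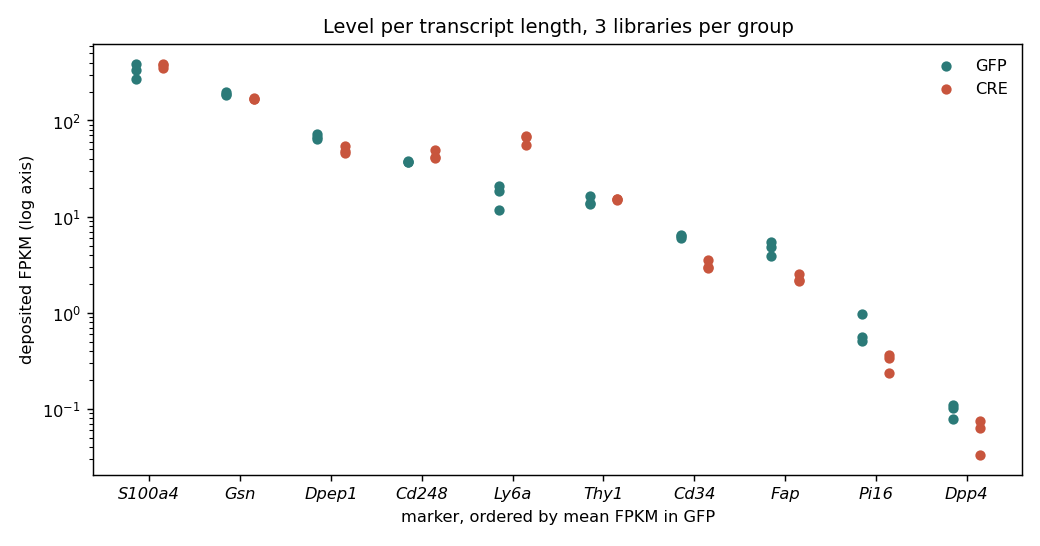
Deposited FPKM of the 10 markers in each of the 3 GFP and 3 CRE libraries, on a log axis, ordered by the mean in GFP. Levels run from 332.2 FPKM (*S100a4*) to 0.0973 FPKM (*Dpp4*) in GFP, and *Ly6a* moves from the fifth place in GFP to the third in CRE, at 64.1 FPKM.

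Each marker was then set beside genes of its family or of a like kind of protein. Among 10 other peptidases listed with *Fap* and *Dpp4*, most of them serine peptidases that cleave after proline, 9 were tested, 2 were higher and 3 lower. *Dpp3*, a zinc peptidase that shares a name but no family with *Dpp4*, is 1 of the 2, and leaving it aside 1 of 8 was higher. The cytosolic *Dpp3* (log2 fold change 0.40 ± 0.05, SE) and *Dpp8* (0.20 ± 0.05) were higher, and *Prepl* (-0.34), *Prep* (-0.21) and *Dpp9* (-0.17) were lower. No tested gene of this list had as large an absolute log2 fold change as *Fap*, and the 3 that fell were no longer called on FPKM values. With library size alone 4 of the 9 were higher and 1 lower, against 43% and 16.2% of all tested genes. *Dpp9* was not called with library size alone or on FPKM values (adjusted p of 0.953, 0.951 and 0.950), in DESeq2 (0.0556) or without GFP replicate 3 (adjusted p of 0.0543), CRE replicate 1 (0.0703) or CRE replicate 2 (0.0772). The other membrane dipeptidases, *Dpep2* and *Dpep3*, had too few counts to be tested beside *Dpep1*.

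In the Ly6 and uPAR family 8 of 21 other genes were tested, and 4 were higher and 2 lower. *Ly6c1* rose from 13, 25 and 24 counts in GFP to 116, 144 and 80 in CRE, or 2.39 ± 0.29 (SE) as a log2 fold change, at an adjusted p of 7.40e-05. *Ly6e*, 34.97 kb from *Ly6a*, rose from 383.8 ± 95.4 to 563.6 ± 5.35 CPM (SD, n = 3). This is 0.55 ± 0.14 (SE) on the log2 scale, at an adjusted p of 0.00838, and as for *Ly6a* its GFP replicate 1 was the lowest library. *Lynx1* (0.76) and *Lypd6* (2.97, on 2 to 7 counts per GFP library and 30 to 47 per CRE library) were also higher. *Lypd6* passed the filter on low counts through the CRE libraries alone, the group where it is high, and leaving it aside 3 of 7 were higher. *Lypd1* (-1.65) and *Cd59a* (-0.44), an inhibitor of complement, were lower, so the family did not move as one.

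Of 4 other sialomucins 2 were lower and 1 higher. Only *Podxl* and *Podxl2* belong to the family of *Cd34*, while *Emcn* and *Cd164* are alike in their sugar chains. *Podxl*, podocalyxin, fell from 17.5 ± 1.94 to 7.31 ± 0.462 CPM (SD, n = 3), and the log2 fold changes of *Podxl* and of *Emcn*, endomucin, were -1.25 ± 0.11 and -1.15 ± 0.07 (SE). *Cd164* rose from 543.0 to 677.3 CPM (0.32 on the log2 scale), and *Podxl2* did not pass the threshold. Of the 3 genes closest to *Cd248*, 2 were lower. *Cd93* fell from 75.05 ± 5.27 to 14.9 ± 2.02 CPM (SD, n = 3). The log2 fold changes of *Cd93* and *Clec14a* were -2.33 ± 0.09 and -1.83 ± 0.18 (SE), while *Thbd*, thrombomodulin, at 0.12, did not pass except without GFP replicate 2. *Emcn*, *Cd93*, *Clec14a* and *Thbd* are best known from endothelial cells, as *Podxl* and *Cd34* are in part.

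Among the relatives of *Gsn*, 4 of 6 tested genes were lower and none was higher, namely *Vill* (-1.01), *Svil* (supervillin, -0.55), *Capg* (-0.43) and *Flii* (-0.21), the last of which was not called with library size alone or on FPKM (adjusted p of 0.295, 0.309 and 0.319). Of 6 other S100 genes tested, *S100a16* was lower (-0.38, adjusted p of 0.00172), and *S100a6* (0.05), *S100a10* (0.02), *S100a11* (-0.05), *S100a1* (0.02) and *S100a13* (0.25) did not pass. With library size alone 3 of these 6 S100 genes were higher and 1 lower, against the 43% and 16.2% of all genes. Of 4 CAP domain genes tested beside *Pi16*, 2 were lower and 1 higher. *Pi15* fell from 24.9 to 7.94 CPM (log2 fold change -1.65 ± 0.11, SE), *Glipr1* had a log2 fold change of -0.51 and *Crispld2* one of 0.29, all called, while *Glipr2* did not pass.

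Other fibroblast genes, in lists that hold none of the 10 markers, were mostly lower. These lists too were chosen with earlier results of these data known. Of 28 tested genes of resident fibroblasts 19 were lower and 1 higher, and 8 stayed short of the threshold, with a median log2 fold change of -0.60. *Col14a1*, a fibril-associated collagen, fell from 78.2 ± 3.27 to 20.9 ± 2.88 CPM (SD, n = 3, log2 fold change of -1.90), and the aggrecanase *Adamts5* from 424.0 ± 58.1 to 119.2 ± 8.58 CPM (-1.83). *Sema3c*, a semaphorin, was the one that rose (0.33, adjusted p of 0.00664). A second gene of the list was called higher with library size alone, on FPKM values, with the replicate block or without GFP replicate 2, and the number lower was between 17 (library size alone and FPKM) and 23 (without GFP replicate 1). *Ebf2* was the lower gene nearest 0 (-0.27), with overlapping groups, and it was not called with library size alone (adjusted p of 0.325), on FPKM values (0.623) or without GFP replicate 2 (0.105), GFP replicate 3 (0.0704), CRE replicate 1 (0.117) or CRE replicate 3 (0.0646). Of 30 genes of activated fibroblasts 25 were lower, 2 were higher and 3 did not pass, with a median of -0.72. *Postn*, periostin, had a log2 fold change of -1.79 ± 0.04 (SE) and *Thbs4* one of -1.47 ± 0.39, on 16 to 23 counts per GFP library and 5 to 11 per CRE library. The 2 that were higher were *Lrrc15* (1.83 ± 0.39), on 6 to 15 counts per GFP library and 24 to 46 per CRE library, and *Angptl4* (1.27 ± 0.07). Only 1 CRE library for *Thbs4* and 1 GFP library for *Lrrc15* reached the minimum of the filter, so each gene was tested through the group in which it was high. The number higher in this list was 4 with library size alone, on FPKM values, with the replicate block and without GFP replicate 2, and the number lower was 22 with library size alone and on FPKM values. *Fap* thus had the sign of most of its list, as *Cd34* and *Pi16* had of the resident list, and *Ly6a* had the opposite one.

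Of 29 tested surface genes common to mesenchymal cells, 15 were lower, 7 were higher and 7 did not pass, with a median of -0.20. The adhesion molecules *Vcam1* and *Icam1* went opposite ways, *Vcam1* from 824.8 ± 144 to 394.6 ± 15.01 CPM (SD, n = 3, log2 fold change of -1.06) and *Icam1* from 69.3 ± 4.94 to 147.0 ± 2.16 CPM (1.08). The aminopeptidase *Anpep* (CD13) was lower (-0.89) and the proteoglycan *Cspg4* (NG2) higher (1.03 ± 0.23, SE). With library size alone 12 of the 29 were lower and 8 higher, against 16.2% and 43% of all genes, and the median was -0.036 (-0.011 and -0.019 on FPKM values). *Itgb1*, called lower at -0.15, turned to 0.015 under that scaling (0.018 on FPKM values).

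**Figure D4:**
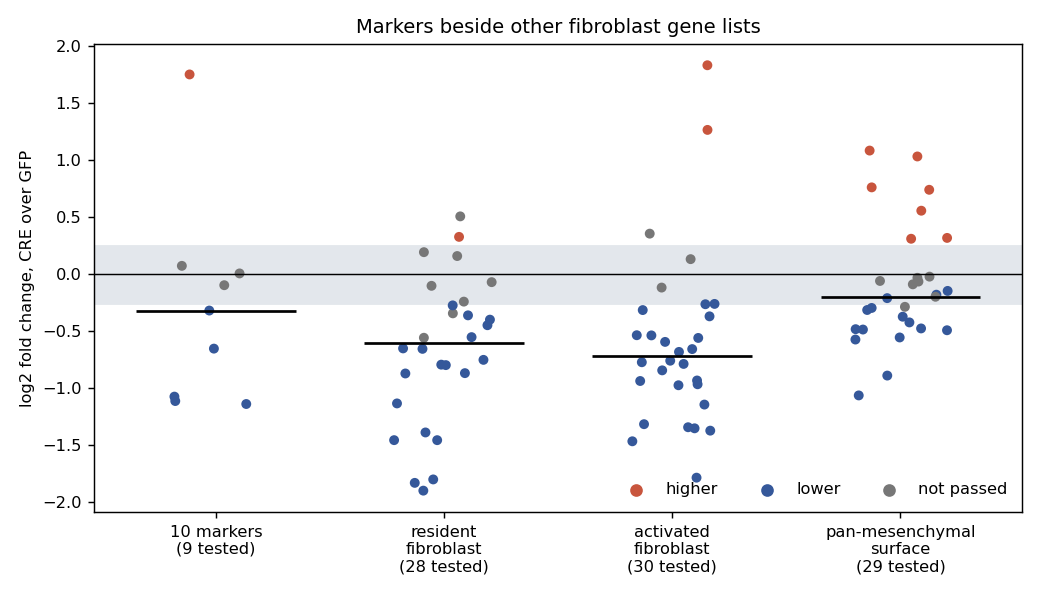
Log2 fold change of CRE over GFP for each tested gene (1 point per gene, horizontal position within a list has no meaning) among the 10 markers, resident fibroblast genes, activated fibroblast genes and general mesenchymal surface genes. Black lines are medians (-0.32, -0.60, -0.72 and -0.20), red, blue and grey points are higher, lower and not passed, and the shaded band holds the middle 50% of all tested genes.

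Several markers are also made by other cells, whose own transcripts were therefore summed per library. Endothelial markers, which bear on *Cd34* and *Ly6a*, summed to between 467 and 519 CPM in GFP and between 239 and 270 CPM in CRE. Of these 15 genes 13 were lower (*Cldn5* reached the minimum of the filter in GFP libraries alone, the group where it is high), none was at 0, and the most abundant, *Cdh5* (VE-cadherin), went from 141.7 to 80.1 CPM. They fell together with *Cd34* and against *Ly6a*, and their part in either result was not tested. Leukocyte markers, which bear on *S100a4* and *Thy1*, summed to between 35.7 and 38.6 CPM in GFP and between 21.8 and 26.2 CPM in CRE, with 3 of 6 tested genes lower and most of the sum from *Lyz2* (23.5 and 14.6 CPM). Pericyte and smooth muscle markers, which bear on *Cd248*, summed to between 173 and 178 CPM and between 151 and 157 CPM, with 1 of 11 tested genes higher and 5 lower, *Higd1b* at 0 in all libraries and *Steap4* the most abundant. Schwann and neural markers, which bear on *Thy1*, summed to between 46.9 and 50.7 CPM and between 56.2 and 68.4 CPM, chiefly through *Tubb3*, which was higher, with *Snap25* at 0. The part of these lists in the results of *S100a4*, *Cd248* and *Thy1* was not tested.

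As a check of the labelled cell type, 10 genes of fibroblast identity summed to between 44310 and 45501 CPM in GFP and between 25484 and 27603 CPM in CRE. All 10 were lower in CRE, *Col1a1* the most abundant of them (13729 to 8248 CPM). Of these, *Pdgfra*, *Dcn*, *Lum* and *Tcf21* also stand in the resident list, and *Ddr2* in that of mesenchymal surface genes. Likewise *Emcn* stands in the sialomucin and endothelial lists, and *Cspg4* in the mesenchymal surface and pericyte lists. The lists are therefore not separate evidence for these genes. Cardiomyocyte markers stayed at or below 1.61 CPM in sum, with *Myh6* and *Myl7* at 0 and none tested, the most abundant being *Tnnt2* in GFP (0.510 CPM) and *Ttn* in CRE (0.579 CPM). Mesothelial markers summed to between 12.2 and 12.9 CPM in GFP and between 13.8 and 17.7 CPM in CRE, with 4 of 7 tested genes higher and 1 lower, *Wt1* the most abundant in GFP and *Upk3b* in CRE. Of the 4, *Upk1b*, *Krt19* and *Krt18* reached the minimum of the filter in all CRE libraries but not in all GFP libraries, and 3 genes were higher without GFP replicate 2, GFP replicate 3, CRE replicate 1 or CRE replicate 2.

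The genes whose pattern over the 6 libraries was most like that of *Ly6a* were *Egr3* (distance 0.483, log2 fold change of 2.09), the class I histocompatibility gene *H2-Q6* (0.508, 1.78) and *Tbc1d8* (0.534, 1.71). The distance is Euclidean, over log2 CPM centred on the GFP mean of each gene. For *Cd34* they were *Mtmr11* (0.132, -1.11), *Smad6* (0.149, -1.19) and *Pcdhgc5* (0.169, -1.20). *H2-Q6* has near-identical copies and *Pcdhgc5* shares exons with other protocadherin genes of its cluster, so reads of both are uncertain in their origin. The distances for *Cd34* are smaller than those for *Ly6a*, whose GFP libraries were further apart. In GFP *Egr3*, *H2-Q6* and *Tbc1d8* stood at 1.47, 4.50 and 0.930 CPM, against 16.05 CPM for *Ly6a*. The prior count of 2 draws the log2 values of such scarce genes together.

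**Figure D5:**
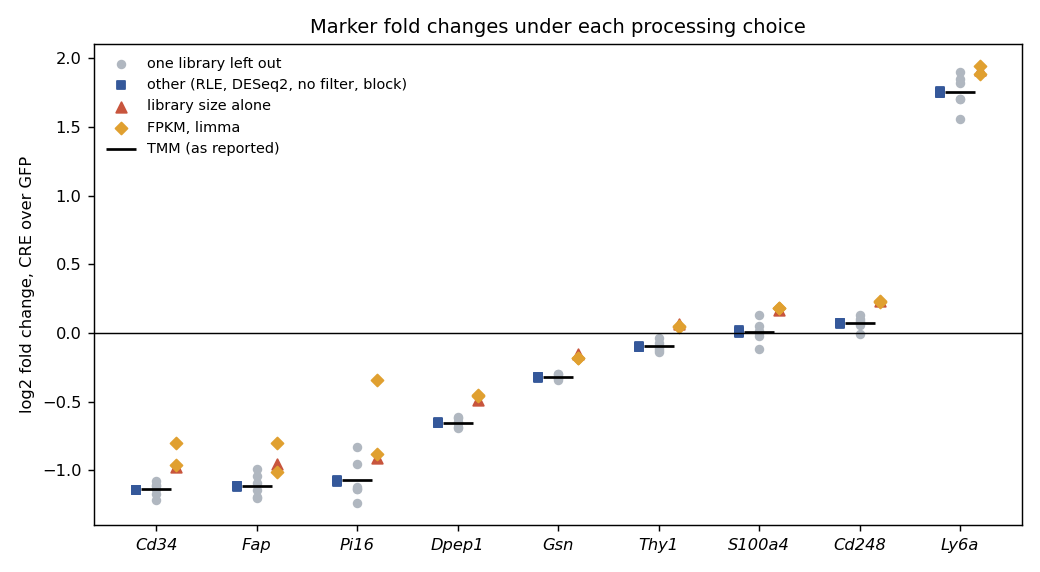
Log2 fold change of the 9 tested markers (CRE over GFP) with TMM scaling (black line), with 1 library left out (grey), with other normalization, test, filter or replicate block (blue), with library size alone (red triangle) and by limma on log2 FPKM with a pseudocount of 1 or 0.1 (yellow). *Cd34*, *Fap*, *Pi16*, *Dpep1* and *Gsn* stay below 0 and *Ly6a* above 0 throughout, while *Thy1*, *Cd248* and *S100a4* lie on both sides.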

How the data were processed

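RNA-seq covered 6 libraries, 3 per group, grouped and numbered by their titles. The methods of the study state that reads were trimmed with Trimmomatic, aligned to GRCm38 with HISAT2, counted per gene with HTSeq-count and converted to FPKM with Cufflinks. Tool versions and the strand setting are not given in the sources used here, and the labels and the methods name different library kits. The authors deposited raw read counts per gene and library, not normalized, for 22063 genes. FPKM values per library were deposited by the authors beside them. The log2 fold change, p-value and false discovery rate that the authors deposited come from their own comparison and were not used.

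The count test used edgeR 4.0.16 in R 4.3.3: filterByExpr (minimum count 10, minimum total 15) kept 12862 genes, 4856 had no count, libraries were scaled by TMM (factors 0.944 to 0.947 in GFP, 1.05 to 1.06 in CRE), and a two-sided quasi-likelihood test of CRE against GFP was run, with Benjamini-Hochberg adjustment over these genes. SE was derived from the F statistic as the size of the log2 fold change over the root of F. The distance between patterns used a prior count of 2. Coordinates and exon lengths are from GENCODE M21, which held 21973 of the identifiers, and promoters from RefSeq. Alternatives were RLE scaling, library size alone, no filter, DESeq2 1.42.0, limma 3.58.1 on log2(FPKM + 1) and log2(FPKM + 0.1), a replicate block and each library left out.

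Tested on simulated data (10 sets, 12862 genes, 200 changed 1.5-fold), the count test recovered 76.8% of changed genes, 8.86% of its calls being unchanged genes. That share is above the adjusted p threshold of 0.05. Only 200 genes were changed in these sets, whereas 51.2% of the tested genes passed in the data. How the count test performs with so large a share of genes passing was not tested. The markers, gene lists and cell type markers were chosen with earlier results of these data known. Named are the markers, *Tet3*, the 2 highest and 2 lowest called genes of each list, family genes, the 3 genes nearest in pattern to the highest and lowest called marker, and of each cell type the most abundant marker and those at 0. Neighbouring genes, *Tcf21*, *Itgb1* and the cell type markers named for their counts were picked with their values in view. Other genes that stand in 2 lists are named for that overlap alone.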

Additional observations from a re-analysis of the deposited data

How the results depend on the processing

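The 5 lower markers and *Ly6a* kept their direction and passed the threshold in all 13 alternative fits. Their log2 fold changes ranged, without 1 library each and then under other processing, from 1.56 to 1.90 and from 1.75 to 1.95 (*Ly6a*), from -1.22 to -1.08 and from -1.15 to -0.80 (*Cd34*), from -1.20 to -0.99 and from -1.12 to -0.80 (*Fap*), from -1.24 to -0.83 and from -1.09 to -0.35 (*Pi16*), from -0.70 to -0.61 and from -0.66 to -0.45 (*Dpep1*), and from -0.34 to -0.30 and from -0.33 to -0.16 (*Gsn*). The adjusted p of *Pi16*, the scarcest marker tested, ranged from 0.00758 to 0.0372, and the pseudocount lowers its change on FPKM. The count with a 1.5-fold change was 3 on log2(FPKM + 1), 4 on log2(FPKM + 0.1) and 4 with library size alone, against 5.

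Scaling moved the others. With library size alone, on log2(FPKM + 1) and on log2(FPKM + 0.1), 2 markers were higher in each, the added one being *Cd248* (0.24, 0.23 and 0.23, with adjusted p of 0.0121, 0.0264 and 0.0257), and *Thy1* turned to 0.065, 0.044 and 0.047. Over all genes these gave 5529, 4976 and 4989 higher and 2083, 1916 and 1909 lower, so that 72.6%, 72.2% and 72.3% of calls were higher in place of 49.8%. Library size alone moved the median of all genes by 0.16, and log2(FPKM + 1) and log2(FPKM + 0.1) moved it by 0.13 and 0.16. The mean deposited FPKM of *Cd248* was 37.19 in GFP and 43.78 in CRE. Its counts over summed exon length, scaled by library size alone, gave the same means, 37.19 and 43.78. For *Cd248* the FPKM values are therefore not separate evidence from library size alone. Whether the same holds for the other genes was not tested. With 1 library left out *Cd248* ranged from -0.0066 (without CRE replicate 2) to 0.13, *Thy1* from -0.14 to -0.035 and *S100a4* from -0.12 to 0.13. *S100a4* was negative without GFP replicate 1 (-0.12), CRE replicate 1 (-0.00069) or CRE replicate 2 (-0.020).

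Same-numbered libraries deviated together at r of 0.046, 0.18 and -0.018. Whether the replicate numbers pair the libraries by design is not stated in the sources used here, and these values cannot decide it. With the replicate block, 3260 genes were higher and 3373 lower, and the markers were again 1 higher and 5 lower. *Dpp4* entered no fit with the filter, and without it was not called.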

Other observations

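The genes next to the markers, within 200 kb, were looked at after their values had been seen, and nothing was tested beyond the fit over all genes. Around *Fap* and *Dpp4* on chromosome 2, *Ifih1*, the RNA sensor MDA5 gene 21.7 kb from *Fap*, was at 170.7 CPM in both groups (log2 fold change of -0.002, SE 0.19), while *Gca*, 90.2 kb from *Fap*, was lower (log2 fold change -0.75 ± 0.12, SE, at an adjusted p of 0.000529). *Gcg*, which lies between *Dpp4* and *Fap*, was at 0 counts. Around *Ly6a* 3 of 11 genes were tested, and *Ly6e* and *Ly6c1* were higher while *Ly6k* did not pass (-0.05, adjusted p of 0.691). Around *S100a4*, in the cluster of S100 genes, 9 of 19 genes were tested, none was higher and 3 were lower, *Chtop* (-0.36), *S100a16* (-0.38) and *Snapin* (-0.18). Next to *Cd34*, *Cd46* was higher (0.65, adjusted p of 0.0312), and *Plxna2* (-0.42) and *Cr1l* (-0.31) were lower. Around *Cd248* 16 of 18 genes were tested, and 5 were higher, *Brms1* with the largest log2 fold change (0.91), while *Pacs1* (-0.60) was lower. Around *Dpep1* 13 of 14 were tested, and 5 were higher, while *Rpl13* (-0.86) was lower. Of those higher, *Fanca* had the largest log2 fold change (0.62), at only 1.46 CPM in GFP and 2.27 CPM in CRE (adjusted p by edgeR of 0.0434). Around *Gsn* *Stom* was higher (0.66) and *Cntrl* lower (-0.27) among 5 tested, around *Pi16* *Mtch1* (-0.25) and *Pim1* (-0.48) were lower among 4, and around *Thy1* *C1qtnf5* was lower (-0.60) among 6.

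*Tcf21*, a transcription factor gene of cardiac fibroblasts, was singled out after its values were seen. It fell from 36.1 ± 3.08 to 10.4 ± 0.862 CPM (SD, n = 3), or -1.80 ± 0.09 (SE) on the log2 scale, which is further than any of the 9 tested markers fell.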
